A study of Mus musculus with 2 samples.

Results

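The C1q-high macrophages of imiquimod-treated dermis were 640 of the 10634 cells in the series, all from the dermal library, of which they made up 11.9% (exact binomial interval 11.1 to 12.8). They were chosen from their own transcripts. A cell was kept when it had 200 to 5000 genes, at most 10% of its UMIs (unique molecular identifiers, which count captured transcripts) from mitochondrial genes, and *C1qa*, *C1qb* and *C1qc* together at 20 or more UMIs per 10000 UMIs of the cell (per 10k). It also had the resident macrophage genes *Cd163*, *Folr2*, *Lyve1* and *Cbr2* together under 5 per 10k, at most 1 UMI of *Cd3d*, *Cd3e* and *Cd3g*, and under 3 UMIs of the cycling genes *Mki67* and *Top2a*. Of 4721 dermal cells within the limits on genes and mitochondria, 859 passed the limit on C1q and 697 of these had the resident genes under 5 per 10k. The limit on *Cd3* then left out 22 cells and the limit on cycling genes 36, with 1 cell lost to both.

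C1q is the recognition part of the classical complement pathway. It is built from 3 kinds of chain, encoded by *C1qa*, *C1qb* and *C1qc*, and tissue macrophages and some dendritic cells are its main source. Dermal macrophages clear dying cells and debris. They include long-lived cells that carry scavenger receptors such as CD163, FOLR2 and LYVE1, and cells that arise from blood monocytes, which enter the skin in larger numbers during inflammation and take on macrophage genes there.

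The mice were wild-type C57BL/6, 10 weeks old by the labels, and all received imiquimod (IMQ), which activates Toll-like receptors, over 5 days. The labels place the treatment on the ear, while the methods give a younger age, and no untreated library was analysed here. Dermis and epidermis were made into 1 droplet-based 3′ library each. The methods load CD45+ live cells of the dermis and all live cells of the epidermis, whereas the labels speak of live cells for both. The number of mice behind a library is not given in the sources used here. There were 5376 dermal cells with 41258087 UMIs in all (per-cell medians 6086 UMIs, 1669 genes) and 5258 epidermal cells with 108768396 UMIs (per-cell medians 16965 UMIs, 3392 genes). The libraries shared 45 cell barcodes, 6 of them among the 640 cells. With 1 library per tissue and cells that are not replicates, no test was made, and every interval is an exact 95% interval that covers counting error only.

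The 3 genes that lead the population lie side by side on chromosome 4 and are read from the minus strand. In GRCm38 (GENCODE M21) *C1qb* (ENSMUSG00000036905) spans 136880129 to 136886187, *C1qc* (ENSMUSG00000036896) 136889804 to 136893065 and *C1qa* (ENSMUSG00000036887) 136895917 to 136898803. The RefSeq promoter windows of GRCm38.p6, 250 bases before to 50 after the start, are shown for *C1qb* and *C1qc* because these are genes of the rule, with a UMI in 98.8% and 95.8% of the cells. That of *C1qa*, with a UMI in 97.2%, was not used here. The *C1qc* window is chr4:136892865-136893164 and the *C1qb* window chr4:136886151-136886450, both on the minus strand and written 5′ to 3′. Capitals mark matches to GCTGAC, a core of the recognition element of MAF factors, or to AGGAAG, a core of the element of PU.1 and other ETS factors, searched on both strands (reverse complements GTCAGC and CTTCCT), and no match overlapped another.
C1qb: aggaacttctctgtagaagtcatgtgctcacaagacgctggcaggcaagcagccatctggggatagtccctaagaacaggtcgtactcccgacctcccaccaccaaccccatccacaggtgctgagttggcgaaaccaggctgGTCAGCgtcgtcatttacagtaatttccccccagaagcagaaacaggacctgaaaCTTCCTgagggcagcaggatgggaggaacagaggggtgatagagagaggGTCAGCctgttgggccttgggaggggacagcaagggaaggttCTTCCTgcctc
C1qc: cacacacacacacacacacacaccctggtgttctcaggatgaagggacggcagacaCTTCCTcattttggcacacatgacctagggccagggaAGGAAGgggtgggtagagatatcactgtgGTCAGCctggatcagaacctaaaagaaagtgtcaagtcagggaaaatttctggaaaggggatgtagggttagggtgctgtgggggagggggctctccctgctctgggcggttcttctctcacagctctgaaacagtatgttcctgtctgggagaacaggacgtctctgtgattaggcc
The *C1qb* window held 2 GCTGAC and 2 AGGAAG matches, and the *C1qc* window 1 and 2. Of 32851 promoter windows of the same length, 15.7% held GCTGAC and 35.4% held AGGAAG.

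The values that chose the cells are given as a description. The summed C1q level of the 640 cells ran from 20.02 to 243 per 10k, with quartiles of 32.2, 50.3 and 78.6. The level was graded across the limit: the nearest cell below it had 19.9 per 10k and the nearest above it 20.02, with 86 cells between 15 and 20 per 10k and 68 of the 640 cells between 20 and 25. The counts behind these levels were a median of 42 C1q UMIs per cell, and 23 cells had fewer than 5. Of the resident genes, the cells nearest the limit of 5 per 10k had 4.97 and 5.11, and 368 of the 640 cells had no UMI of any of the 4 genes. *Ptprc*, which encodes CD45, had a UMI in 430 cells.

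The population is compared below with 4 others of the dermal library, each held to the same limits on genes and mitochondria. Resident-type macrophages (143 cells) met the same limits on C1q, *Cd3* and cycling genes but had the resident genes at 5 per 10k or more. *Ly6c2*-high monocytes (359 cells) had *Ly6c2* at 5 per 10k or more, a *Csf1r* UMI and C1q under 5 per 10k. *Cd209a* or *Flt3* dendritic cells (43 cells) had these 2 genes at 5 per 10k or more, *Ly6c2* under 5 and C1q under 5. Monocytes and dendritic cells also met the same limits on *Cd3* and cycling genes. T cells (230 cells) had at least 3 UMIs of *Cd3d*, *Cd3e* and *Cd3g* and no *Csf1r* UMI. They should lack macrophage transcripts and served as a measure of free RNA, although cells with free *Csf1r* RNA were thereby left out of it. Their gate set no limit on C1q or on cycling genes. Median depth was 8270 UMIs for the C1q-high macrophages, 9752 for resident-type macrophages, 9918 for monocytes, 11486 for dendritic cells and 7459 for T cells. Median C1q was 66.4 per 10k in resident-type macrophages, 1.59 in monocytes, 1.52 in dendritic cells and 1.72 in T cells.

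The macrophage markers beyond C1q were present. *Ms4a7* (ENSMUSG00000024672), a membrane protein gene of macrophages, had a UMI in 80.3% of the cells (77.0 to 83.3) against 20.6% of monocytes, 23.3% of dendritic cells and 15.2% of T cells. After each cell was thinned to 1000 UMIs the share was 40.6% of C1q-high macrophages, 1.12% of monocytes and 2.64% of T cells. *Fcgr1* (ENSMUSG00000015947), which encodes the high-affinity Fc receptor CD64, had a UMI in 65.2% of the C1q-high macrophages, 61.5% of resident-type macrophages, 44.8% of monocytes and 6.09% of T cells. After thinning these shares were 16.2%, 15.7%, 9.78% and 1.32%, and its level of 182 CPM was within 2-fold of the 103 CPM of monocytes. Both genes were detected in 355 cells, only 1 of the pair in 221 and neither in 64.

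Of all UMIs in dermal cells within the limits on genes and mitochondria, the C1q-high macrophages held 16.0%, but they held 52.5% of those of *Ms4a7*, 41.5% of *Aif1*, an actin-binding protein gene of macrophages, and 41.3% of *Cd72*, a lectin-like receptor gene. They held 61.0% of *C1qa* UMIs, which the rule fixed in part, and 6.28% of *Il1b* UMIs. The most abundant transcripts, apart from mitochondrial and ribosomal protein genes and those of the rule, were *Tmsb4x*, *Fth1*, *Ftl1*, *Actb*, *Lyz2*, *Fau*, *Tpt1*, *Eef1a1*, *Malat1* and *Fcer1g*. Levels are summed UMIs of a population per 1000000 of its UMIs (CPM). *Ms4a7* stood at 635 CPM in C1q-high macrophages, 677 in resident-type macrophages, 24.7 in monocytes and 22.4 in T cells, so the macrophage populations differed by 1.07-fold (0.994 to 1.14) and monocytes were near the level of T cells. *Aif1* stood at 1333 CPM, above 814 in resident-type macrophages and 247 in monocytes. *Maf*, a transcription factor gene of macrophages, stood at 214 CPM, between 364 in resident-type macrophages and 32.9 in monocytes.

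The label of an inflammatory macrophage was checked against a list of cytokine genes. *Il1b*, encoding interleukin-1β, stood at 530 CPM in C1q-high macrophages, 297 in resident-type macrophages and 1902 in monocytes, with 230 in T cells. *Tnf* stood at 63.8 CPM and *Ly6c2* at 93.7, both below the T-cell levels of 79.6 and 105, and *Cxcl2*, a neutrophil-attracting chemokine gene, at 722 CPM beside 644 in T cells. *Il12b* had 1 UMI and *Il23a* 18 UMIs in all 640 cells. T cells can make *Tnf* and *Ly6c2* themselves, so not all of their UMIs need be free RNA. Because these levels were at or below those of T cells, or below those of monocytes, the cells are called C1q-high macrophages here, by their leading genes.

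**Figure D1:**
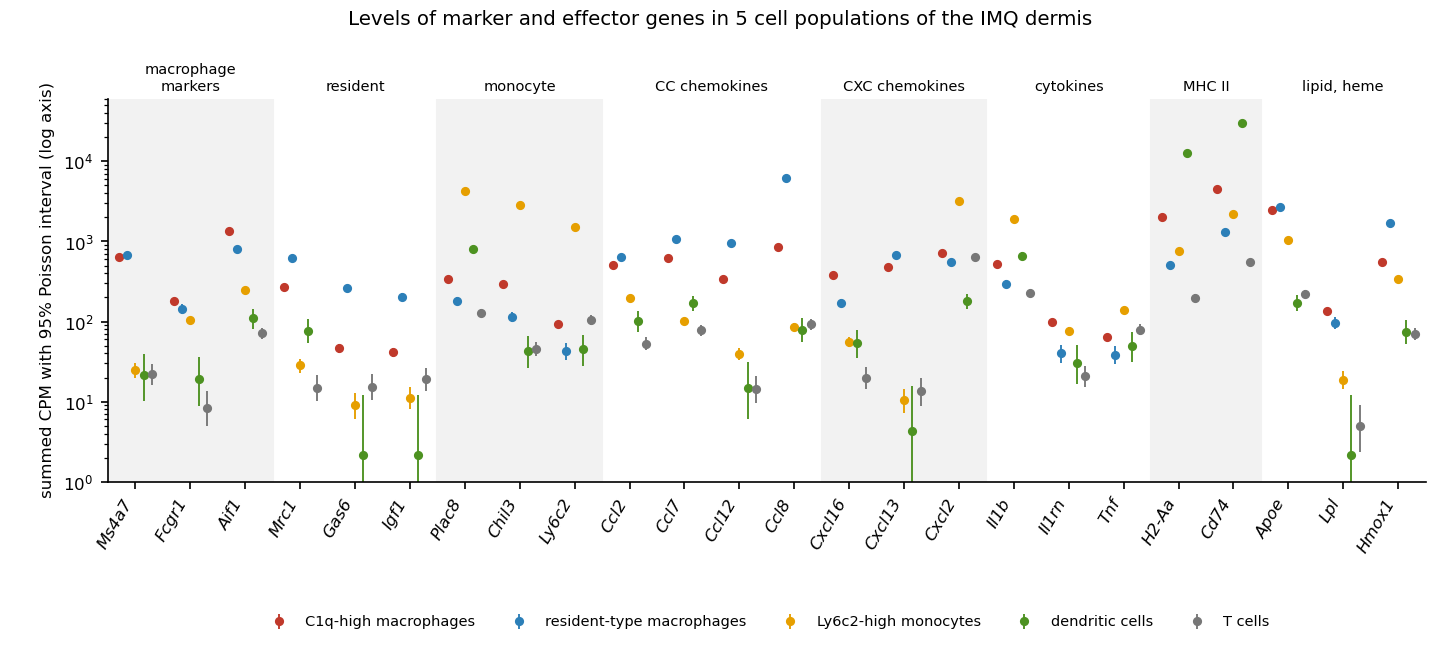
Levels of marker and effector genes in 5 dermal populations, in CPM on a logarithmic axis, with exact 95% Poisson intervals that cover counting error only and are cut at the axis limit. *Ms4a7* and *Aif1* are high in both macrophage populations, *Plac8*, *Chil3* and *Ly6c2* in monocytes, *H2-Aa* and *Cd74* in dendritic cells, and *Cxcl16* is higher in C1q-high macrophages (380 CPM) than in the other 4 populations.

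Against resident-type macrophages, the question was how C1q-producing cells without the resident genes differed from those with them. A gene was compared when the 2 populations together had at least 100 UMIs of it, and it was counted as higher or lower at a 2-fold ratio of CPM with 0.5 UMI added. Of 5252 genes compared, 187 were higher in C1q-high macrophages (3.56%) and 151 lower (2.88%), or 338 in either direction (6.44%), and the median log2 ratio was -0.06. With the resident genes limited to under 2 per 10k, 74 were higher and 95 lower, with 5 UMIs added in place of 0.5, 111 and 170, and with a minimum of 20 UMIs, 528 and 543, so the balance of higher and lower genes turned with the setting. Of 19 macrophage genes compared, 2 were higher (*Ms4a4c* and *Cx3cr1*), 1 lower (*Pf4*) and 16 within 2-fold, with a median of 0.09. The populations were split by the resident genes, so differences in genes that go with those are built into the comparison.

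The resident program was lower beyond the 4 genes of the rule. Of 20 listed genes of resident dermal macrophages, 15 passed the minimum of 100 UMIs, 4 of these were the genes of the rule, and 10 of the other 11 were lower and none higher, with a median log2 ratio of -1.79. Over all genes of this comparison, 2.88% were lower and 3.56% higher. *Mrc1*, the mannose receptor gene, stood at 269 CPM against 624 (2.32-fold lower, interval 2.14 to 2.51). *Gas6*, which encodes a bridging ligand for receptors that bind dying cells, stood at 46.1 against 260 CPM (5.64-fold lower, 4.83 to 6.59). *Igf1*, a growth factor gene, stood at 41.2 against 202 CPM (4.89-fold lower, 4.13 to 5.80). All of these were still above monocytes, in which *Mrc1* stood at 28.4 and *Igf1* at 11.2 CPM.

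The genes with the largest ratios in this direction included lectins, a channel and receptors. *Cd209f* (29 against 127 UMIs) was 18.7-fold lower (12.4 to 29.0) and *Cd209d* 8.87-fold lower (6.52 to 12.2), and both encode C-type lectins. *Aqp1*, a water channel gene, was 10.3-fold lower (7.67 to 13.8) and *Ednrb*, an endothelin receptor gene, 8.07-fold lower (5.91 to 11.1). *Marco*, a scavenger receptor gene, was 7.14-fold lower (5.55 to 9.23). *Hmox1*, which encodes the enzyme that breaks down heme, stood at 548 against 1687 CPM. Of 10 compared genes of iron and heme handling 3 were lower and none higher (median -0.70), beside 2.88% and 3.56% of all genes.

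Genes higher than in resident-type macrophages included surface receptors. *Clec12a*, an inhibitory lectin receptor gene, had 901 against 24 UMIs and was 8.80-fold higher (5.88 to 13.8), with a UMI in 44.8% against 13.3% of cells. *Cd72* was 7.58-fold higher (5.77 to 10.2), with a UMI in 50.5% against 23.1% of cells, and *Cd300e*, an activating receptor gene of monocytes, 7.05-fold higher (3.89 to 14.3). *Tmem119*, a membrane protein gene best known from microglia, had 106 UMIs against 1, a ratio of 24.8 with a wide interval of 4.36 to 990. It was found in 11.4% of the C1q-high macrophages. *Slc7a11*, the cystine transporter gene, had 200 against 8 UMIs and was 5.86-fold higher (2.92 to 13.8). *Cytl1*, also among the 10 largest ratios, had 89 of its 120 UMIs in 1 cell.

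Monocyte genes went the other way from resident genes. Of 16 compared genes of the monocyte list, 8 were higher than in resident-type macrophages and 1, *Lyz1*, lower, with a median log2 ratio of 0.98. Beside it, 2 of 7 compared neutrophil markers and 3 of 7 fibroblast markers were higher and none lower (medians 0.77 and 0.51), and the 14 dissociation and heat shock genes, all within 2-fold, had a median of 0.58. Their part was not tested. *Chil3*, a chitinase-like protein gene, was 2.57-fold higher (2.19 to 3.03) and *Ccr2*, the receptor by which monocytes leave the bone marrow and enter tissue, 2.08-fold higher (1.71 to 2.56). *Ccr2* stood at 155 CPM, however, below 240 in T cells, which carry the gene themselves. Of 6 compared chemokine receptor genes, 4 were higher, among them *Ccr1*, *Ccr2* and *Cx3cr1*, and none lower. Over all genes compared with resident-type macrophages, 3.56% were higher and 2.88% lower. *Cx3cr1*, the fractalkine receptor gene, had 518 against 48 UMIs (2.53-fold, 1.88 to 3.47), but 38 of the 48 resident-type UMIs came from 1 cell of 1350 UMIs, and by the mean level over cells it was lower in C1q-high macrophages, with a log2 ratio of -1.45.

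**Figure D2:**
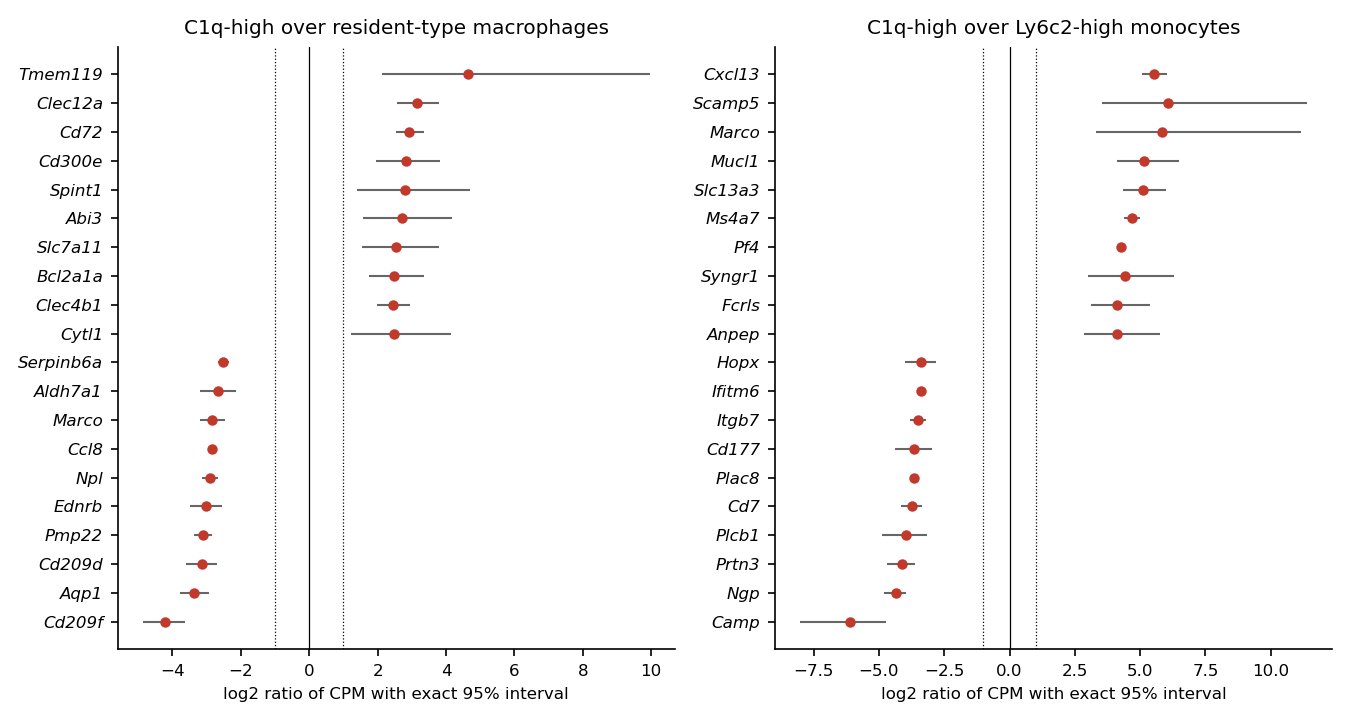
The 10 largest and 10 smallest log2 ratios of CPM of C1q-high macrophages over resident-type macrophages (left) and over *Ly6c2*-high monocytes (right), genes being chosen with 0.5 UMI added and drawn without it, with exact 95% intervals for counting error. Dotted lines mark 2-fold, and genes with 1 UMI in the other population, such as *Tmem119* and *Scamp5*, have the widest intervals.

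Against *Ly6c2*-high monocytes, the question was which genes set macrophages apart from monocytes of the same tissue. Of 5907 genes compared, 373 were higher in C1q-high macrophages (6.31%) and 460 lower (7.79%), or 833 in either direction (14.1%), with a median log2 ratio of 0.01. The balance turned to 450 higher and 382 lower without mitochondrial and ribosomal protein genes in the totals, and to 965 and 839 with a minimum of 20 UMIs. Of 18 macrophage genes compared, 6 were higher (*Adgre1*, *Maf*, *Ms4a7*, *Aif1*, *Cd63* and *Pf4*), 3 lower (*Cd14*, *Ms4a4c* and *Lyz2*) and 9 within 2-fold, with a median of 0.05. *Ms4a7*, with 3991 against 88 UMIs, was 25.7-fold higher (20.8 to 32.1), and *Pf4*, a platelet chemokine gene also made by macrophages, 19.1-fold higher (17.8 to 20.6). *Slc13a3*, a dicarboxylate transporter gene, had 846 against 14 UMIs and was 34.2-fold higher (20.3 to 62.8). *Marco* (101 against 1 UMI) and *Scamp5* (118 against 1) had ratios of 57.2 and 66.8 with lower bounds of 10.0 and 11.8. *Marco* was carried by 30 of the 640 cells, 5 of which held 71.3% of its UMIs.

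Of 18 compared genes of the monocyte list, 15 were lower than in monocytes and 1, *Lyz1*, higher, with a median of -2.44, a list whose *Ly6c2* chose the monocytes and was left out. *Plac8* stood at 339 against 4273 CPM (12.6-fold lower, 12.05 to 13.2), *Chil3* at 293 against 2853 CPM (9.73-fold lower, 9.26 to 10.2) and *Fn1*, the fibronectin gene, was 9.41-fold lower (7.94 to 11.2). The resident program was intermediate, since 7 of 9 compared genes of that list were higher than in monocytes and none lower (median 2.07). *Mrc1*, for instance, was 9.49-fold higher than in monocytes (7.76 to 11.7). Over all genes of this comparison, 6.31% were higher and 7.79% lower.

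The largest ratios in the direction of monocytes included genes of granulocyte precursors and neutrophils. *Camp*, an antimicrobial peptide gene, had 4 against 158 UMIs (69.8-fold lower, 26.7 to 259), *Ngp* was 20.5-fold lower (15.4 to 27.6) and *Cd177* 12.5-fold lower (7.83 to 21.2). Without the monocyte richest in each, the monocyte level went from 44.4 to 15.5 CPM for *Camp* and from 173 to 98.3 for *Ngp*. Of the 10 listed neutrophil markers 9 were compared and 8 were lower, beside 7.79% of all genes. Summed, this list stood at 4255 CPM in C1q-high macrophages, 2527 in resident-type macrophages, 19968 in monocytes and 3145 in T cells, with *S100a8* its most abundant gene in C1q-high macrophages (1959 CPM, 1453 in T cells). The cycling list summed to 235 CPM in C1q-high macrophages and 82.6 in monocytes, with 3 of 4 compared genes higher (*Birc5*, *Stmn1* and *Pclaf*). The part of these 2 lists in the ratios was not tested.

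Chemokine genes are taken in order of the cells they draw. Ligands that attract monocytes are encoded by a gene cluster on chromosome 11 (GRCm38): *Ccl2* at 82035571 to 82037453, *Ccl7* at 82045712 to 82047525, *Ccl12* at 82101845 to 82103400 and *Ccl8* at 82115185 to 82116799, all on the plus strand. *Ccl2* stood at 514 CPM in C1q-high macrophages, 637 in resident-type macrophages and 197 in monocytes. *Ccl7* stood at 614, 1060 and 101 CPM, and *Ccl12* at 343, 965 and 39.4 CPM. Against resident-type macrophages *Ccl12* was at least 2-fold lower, and *Ccl2* and *Ccl7* were within 2-fold. All 3 were at least 2-fold higher than in monocytes. T cells had *Ccl2* at 53.2, *Ccl7* at 78.1 and *Ccl12* at 14.4 CPM.

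Of the CC chemokine genes compared, *Ccl8* had the widest gap between the macrophage populations, at 861 CPM against 6177 (7.17-fold lower, 6.93 to 7.42), with 84.6 in monocytes and 92.0 in T cells. One of the 640 cells held 562 of its 5414 UMIs, and without that cell the level was 774 CPM. Of 10 compared CC chemokine genes, 4 were lower than in resident-type macrophages (*Ccl6*, *Ccl8*, *Ccl9* and *Ccl12*) and none higher (median -0.86), beside 2.88% and 3.56% of all genes. Against monocytes 6 of 10 were higher and 3 lower (*Ccl3*, *Ccl4* and *Ccl6*), beside 6.31% and 7.79% of all genes. *Ccl3*, which encodes an inflammatory chemokine, was 2.87-fold lower (2.72 to 3.02).

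*Cxcl16* (ENSMUSG00000018920), a membrane-bound chemokine gene whose receptor CXCR6 is carried by T cells, set the population apart in the other direction. It stood at 380 CPM, against 171 in resident-type macrophages (2.22-fold higher, 1.95 to 2.54), 55.4 in monocytes (6.85-fold higher, 5.93 to 7.97), 53.6 in dendritic cells and 19.9 in T cells. It had a UMI in 80.6% of the cells, against 59.4% of resident-type macrophages and 13.9% of T cells, and after thinning in 28.9%, 16.4% and 2.20%. *Cxcl10*, an interferon-induced chemokine gene, was 2.57-fold higher than in resident-type macrophages (1.66 to 4.17) on 241 against 22 UMIs. It was at least 2-fold lower than in monocytes, however. The neutrophil-attracting genes *Cxcl1*, *Cxcl2* and *Cxcl3* were lower than in monocytes as well, *Cxcl2* by 4.42-fold (4.27 to 4.57).

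*Cxcl13* (ENSMUSG00000023078), which encodes the B-cell attractant, was carried by few cells. It stood at 479 CPM, against 671 in resident-type macrophages and 10.4 in monocytes, but had a UMI in 13.3% of the C1q-high macrophages, beside 30.8% of resident-type macrophages and 10.9% of T cells, the latter at 13.4 CPM. One cell held 1236 of its 3011 UMIs and 5 cells held 76.0%. Without the richest cell the level was 283 CPM. In resident-type macrophages 5 cells held 69.4% of its UMIs, so few cells carried most of the transcript there as well.

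Of 14 cytokine genes compared with resident-type macrophages, *Il1rn* and *Il16* were higher and none was lower, with a median of 0.29. Over all genes of that comparison, 3.56% were higher and 2.88% lower. *Il1rn*, which encodes the antagonist of the interleukin-1 receptor, stood at 98.8 CPM against 40.05 (2.47-fold higher, 1.89 to 3.28), with 77.0 in monocytes and 20.9 in T cells. *Il1b* was 1.78-fold above resident-type macrophages (1.61 to 1.97), which is under the 2-fold limit, and 3.59-fold below monocytes (3.45 to 3.75). Of 15 cytokine genes compared with monocytes 6 were lower (*Il1b*, *Il1r2*, *Il6*, *Tnf*, *Osm* and *Tnfsf9*) and 2 higher (*Il18* and *Tnfsf12*), with a median of -0.44. Over all genes compared with monocytes, 7.79% were lower and 6.31% higher. *Il18*, another interleukin-1 family gene, was 2.62-fold higher (2.11 to 3.27).

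Genes of pathogen sensing and its feedback were compared with monocytes, where 7.79% of all genes were lower. Of 17 compared genes that limit or report NF-κB signalling, 8 were lower, 9 within 2-fold and none higher (median -0.91), among them *Nfkbia*, *Tnfaip3* and *Socs3*. Of 16 genes of Toll-like receptor and inflammasome sensing, 4 were lower, 11 within 2-fold and 1, *Tlr1*, higher (median -0.40). *Cd14*, the co-receptor for lipopolysaccharide, was 4.26-fold lower (3.99 to 4.55) and *Nlrp3*, an inflammasome sensor gene, 3.67-fold lower (3.02 to 4.48). Of 20 interferon-stimulated genes 5 were lower and none higher (median -0.63). Against resident-type macrophages the same 3 lists had 1 of 17, 1 of 15 and 2 of 17 compared genes higher and none lower. Over all genes of that comparison, 3.56% were higher and 2.88% lower. *Ptgs2*, the inducible cyclooxygenase gene, was 3.05-fold higher (1.80 to 5.55).

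A list of genes that tissue dissociation and heat shock induce also differed between the populations. It stood at 10350 CPM in C1q-high macrophages, 6560 in resident-type macrophages, 19895 in monocytes, 19598 in dendritic cells and 17548 in T cells. Its most abundant gene in C1q-high macrophages was *Hspa1a* at 2823 CPM. All 14 of its genes were compared, and 5 were lower than in monocytes, beside 7.79% of all genes. Its part in the ratios of sensing genes was not tested.

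Genes of antigen presentation by MHC class II, which shows peptides to CD4+ T cells, were higher than in resident-type macrophages. Of 9 compared, 6 were higher and none lower, with a median of 1.35, beside 3.56% and 2.88% of all genes. *H2-Aa* (ENSMUSG00000036594), an MHC class II chain gene on chromosome 17 (GRCm38, 34282744 to 34287823, minus strand), stood at 2041 CPM against 511 (3.99-fold higher, 3.71 to 4.30), and *Cd74*, the invariant chain gene, at 4501 against 1329 CPM (3.39-fold higher, 3.23 to 3.55). *H2-DMa* and *H2-DMb1*, whose products load the peptide, were 2.53-fold and 2.56-fold higher. Against monocytes 4 of 11 compared were higher and none lower, beside 6.31% and 7.79% of all genes. *H2-Aa* was 2.65-fold higher than in monocytes (2.54 to 2.76).

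Dendritic cells had more of these transcripts than the C1q-high macrophages. Of 4823 genes compared with dendritic cells, 551 were higher in C1q-high macrophages (11.4%) and 370 lower (7.67%), or 921 in either direction (19.1%), with a median of -0.03. With 5 UMIs in place of 0.5 added to each count, 217 were higher and 642 lower, so the balance of the counts turned. Of 11 MHC class II genes 10 were lower and none higher, with a median of -2.64. *Cd74* stood at 30488 CPM in dendritic cells and was 6.77-fold lower in C1q-high macrophages (6.64 to 6.91), and *Ciita*, the class II transactivator gene, 7.20-fold lower (4.94 to 10.4). The list of dendritic cell markers summed to 33.4 CPM in C1q-high macrophages and 1021 in dendritic cells, and its *Xcr1* had no UMI in either. The list holds *Cd209a* and *Flt3*, which chose the dendritic cells, and *Cd209a* alone stood at 633 CPM there. The gap between the sums is thus largely built into the comparison.

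Lysosomal, lipid and complement genes were counted against dendritic cells as well, where 11.4% of all genes were higher and 7.67% lower. Of 24 lysosomal genes 11 were higher and none lower (median 0.92), among them *Lgmn*, a lysosomal protease gene, by 10.9-fold (8.40 to 14.5). Of 15 lipid and cholesterol genes 8 were higher and none lower (median 1.06), *Apoe*, the apolipoprotein gene of cholesterol export, by 14.4-fold (11.5 to 18.1). Of 7 complement genes apart from those of C1q, 5 were higher and none lower (median 1.77). *Slc11a1*, a metal transporter gene of phagosomes, with 362 UMIs against 0, was at least 8.95-fold higher, and *Cd300e*, with 331 against 0, at least 8.19-fold higher, each against a floor of 3 counts in the population. Markers of other cell types moved with this comparison. The mast cell and basophil list summed to 147 CPM in C1q-high macrophages and 961 in dendritic cells, with 3 of 4 compared genes lower (*Mcpt4*, *Cpa3* and *Cma1*), and 1 dendritic cell held 158 of the 233 *Cma1* UMIs there. The neutrophil list summed to 4255 and 2513 CPM, with 5 of 7 higher, and the cycling list to 235 and 34.3 CPM, with 4 of 4 higher. The dissociation and heat shock list summed to 10350 and 19598 CPM, with 3 of 14 lower. The part of these lists was not tested.

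Lysosomal and lipid genes were also compared with the other macrophages and with monocytes. Of 24 lysosomal genes 2 were lower than in resident-type macrophages (*Ctsb* and *Ctsl*, both cathepsin genes) and 2 higher than in monocytes (*Lgmn* and *Cd63*), beside 2.88% of all genes lower and 6.31% higher in those comparisons. Of the lipid and cholesterol genes, 2 of 15 compared were higher than in resident-type macrophages (*Nr1h3* and *Scd2*) and 5 of 17 higher than in monocytes (*Apoe*, *Abca1*, *Nr1h3*, *Fabp5* and *Lpl*), with none lower in either. Of all genes, 3.56% were higher and 2.88% lower than in resident-type macrophages, and 6.31% higher and 7.79% lower than in monocytes. *Apoe* stood at 2463 CPM beside 2672 in resident-type macrophages and 1046 in monocytes. *Lpl*, encoding lipoprotein lipase, stood at 135 CPM beside 97.1 and 18.8, but 77 of its 143 resident-type UMIs came from 1 cell, without which the resident-type level was 45.4 CPM. *Fabp5*, a fatty acid-binding protein gene, was 5.23-fold above monocytes (4.90 to 5.59).

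Genes of tissue repair and matrix were mixed. Of 15 compared with resident-type macrophages 7 were higher and 3 lower (median 0.63), beside 3.56% and 2.88% of all genes. *Mmp14*, a membrane-bound matrix protease gene, stood at 87.5 against 21.7 CPM (4.03-fold higher, 2.82 to 5.95) and *Tgfbi*, a secreted matrix protein gene, at 2084 against 872 CPM (2.39-fold higher, 2.26 to 2.53). *Timp2*, a protease inhibitor gene, stood at 248 against 759 CPM (3.06-fold lower, 2.83 to 3.31). Of the receptors and bridging molecules for dying cells, 3 of 14 compared were higher (*Itgav*, *Itgb5* and *Scarb1*) and 5 lower (*Gas6*, *Pros1*, *Cd36*, *Marco* and *Stab1*).

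Of 10 compared complement genes other than those of C1q, 2 were lower than in resident-type macrophages, among them *Cd55*, which encodes an inhibitor of complement on the cell surface, and none was higher. Against monocytes, *C3ar1*, a receptor gene for a fragment of C3, was 4.10-fold higher (3.395 to 4.98), and *C3* was 4.56-fold lower (3.77 to 5.52). Of 9 complement genes compared with monocytes, 1 was higher and 2 lower, beside 6.31% and 7.79% of all genes. Of 22 compared transcription factor genes, 4 were higher than in resident-type macrophages (*Spic*, *Nr1h3*, *Runx3* and *Batf3*) and none lower. Over all genes compared with resident-type macrophages, 3.56% were higher and 2.88% lower. *Nr1h3*, the gene of the sterol-sensing receptor LXRα, had 158 against 14 UMIs (2.64-fold higher, 1.53 to 4.95) and was 5.26-fold above monocytes (3.18 to 9.26). *Fcgr4*, an activating Fc receptor gene, was 2.20-fold above resident-type macrophages (1.76 to 2.76), and *Fcgrt*, the neonatal Fc receptor gene, 2.76-fold below (2.42 to 3.14).

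The 640 cells varied widely in MHC class II. The summed level of *H2-Aa*, *H2-Ab1*, *H2-Eb1* and *Cd74* had quartiles of 11.8, 30.1 and 129 per 10k and a highest value of 893. The level was 100 per 10k or more in 195 cells (30.5%, 26.9 to 34.2), against 9.09% of resident-type macrophages (4.93 to 15.04), 11.1% of monocytes, 90.7% of dendritic cells and 0.870% of T cells. It was 10 or less in 124 cells (19.4%), against 37.8% of resident-type macrophages, 42.3% of monocytes and 56.96% of T cells. The range thus reached from the level of T cells, whose median was 9.16 per 10k, into that of dendritic cells.

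**Figure D3:**
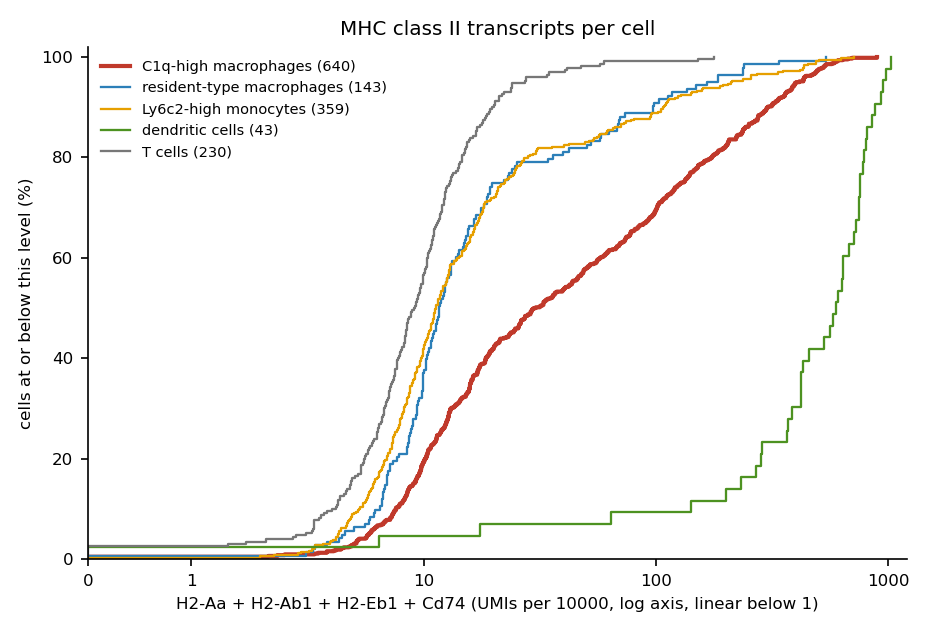
The cumulative share of cells (y axis) at or below a summed *H2-Aa*, *H2-Ab1*, *H2-Eb1* and *Cd74* level (x axis, UMIs per 10000 UMIs of the cell, logarithmic above 1) in 5 dermal populations. The curve of the C1q-high macrophages climbs slowly and lies between those of the other macrophages, monocytes and T cells on the left and that of the dendritic cells on the right, with a median of 30.1.

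The population was set side by side above and below that median, 320 cells each, with 48 cells within 20% of it. Of 4597 genes compared, 33 were at least 2-fold higher (0.718%) and 36 lower (0.783%) in the upper cells. *Ciita* stood at 26.3 against 3.79 CPM (6.93-fold higher, 3.82 to 13.6) and *H2-DMb1* at 377 against 84.2 CPM (4.48-fold higher, 3.93 to 5.12). *Ccr2* was 1.82-fold higher (1.60 to 2.07) and *Il1b* 1.77-fold (1.65 to 1.90). The heat shock gene *Hspa1a* was 1.74-fold higher too (1.69 to 1.80), the dissociation and heat shock list summed to 12662 against 8425 CPM, the neutrophil list to 4701 against 3883 and the fibroblast list to 507 against 408, and their part was not tested. In the lower cells *Lpl* stood at 212 CPM against 42.02 (5.04-fold, 4.15 to 6.17), *Cd36*, a lipid scavenger receptor gene, was 3.83-fold higher (2.73 to 5.48), *Slc13a3* 2.97-fold (2.52 to 3.52) and *Pf4* 2.14-fold (2.08 to 2.20). Of 4 compared cycling genes, 2 were at least 2-fold higher there, *Pclaf* and *Stmn1*, a tubulin-binding protein gene of dividing cells, at 155 against 62.7 CPM (2.47-fold, 2.09 to 2.95). The cycling list summed to 312 against 142 CPM. *C1qb* was nearly level, at 2934 CPM in the upper and 3187 in the lower cells. Median depth was 7806 UMIs in the upper and 9227 in the lower cells, and the part of depth was not tested.

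The C1q level chose the cells, so the cells above and below its median are set side by side as a description only. In the 320 cells at or above it, *Ms4a7* stood at 785 CPM and in the 320 below at 448, *Fcgr1* at 215 and 140, and *Apoe* at 3142 and 1617. *Plac8* stood at 223 CPM in the upper and 483 in the lower cells, and *Ccr2* at 117 and 203. The neutrophil list summed to 3528 CPM in the upper and 5158 in the lower cells, and the fibroblast list to 327 and 610. Their part was not tested.

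A few genes were carried by small numbers of cells. *Cx3cr1* had 2 or more UMIs in 54 cells, *Cxcl13* 5 or more in 20 and *Lpl* 2 or more in 90. No cell was in both the *Cx3cr1* and the *Cxcl13* group, 7 were in both the *Lpl* and the *Cx3cr1* group and 5 in both the *Lpl* and the *Cxcl13* group. These limits were set after the values were seen.

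The 54 cells with *Cx3cr1* were compared with the 544 that had none. *Tmem119* was 2.52-fold higher (1.53 to 4.01), *Olfml3* 3.56-fold (2.01 to 6.11) and *Fcrls* 2.40-fold (1.74 to 3.26), genes that are often used with *Cx3cr1* to mark microglia. Without the 1 cell richest in each gene, the ratios were 2.32 for *Tmem119*, 2.13 for *Olfml3* and 1.61 for *Fcrls*. *P2ry12*, another of these, had a ratio of 1.11 (0.626 to 1.86), and *Sall1* had no UMI in either group. *Pf4* stood at 1385 against 4523 CPM (3.27-fold lower, 3.06 to 3.49). Median depth was 12350 against 7928 UMIs, so a limit on UMIs also picked deeper cells.

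The 20 cells with *Cxcl13* were compared with the 555 that had none. Of 4235 genes compared, 79 were higher (1.87%) and 509 lower (12%), and median depth was 11954 against 8196 UMIs. The 20 cells held 4.35% of the UMIs, so a gene at the minimum of 100 UMIs was expected at 4.35 UMIs in them, and 327 of the 509 lower genes had at most 3. At such counts nothing is read from the balance of higher and lower genes. The dissociation and heat shock list summed to 5021 against 10557 CPM (8 of 14 compared genes lower), the neutrophil list to 2291 against 4161 and the fibroblast list to 187 against 483 (4 of 7 lower), and their part was not tested. *Lyz1*, a lysozyme gene, stood at 676 against 43.6 CPM (15.5-fold higher, 12.6 to 19.0), in 85% against 14.8% of cells, and was 12.7-fold higher (10.1 to 15.9) without the cell richest in it. *Marco* stood at 158 against 5.10 CPM, but at 40.7 without the cell that held 29 of its 38 UMIs. On 38 against 27 UMIs it was under the minimum of 100 and so not among the genes counted. Cycling genes were higher, although the rule had removed cells rich in *Mki67* and *Top2a*: all 4 compared genes of the cycling list were higher, the list summed to 672 against 206 CPM, and *Birc5*, which encodes survivin, was 3.54-fold higher (2.31 to 5.26). *Ccl8* was 3.32-fold higher (3.05 to 3.62) only through 1 cell with 562 of its 620 UMIs, the same cell that held 1236 *Cxcl13* UMIs. Without that cell *Ccl8* was 2.94-fold lower (2.27 to 3.88). *Cd74* was 3.38-fold lower (3.04 to 3.77), and 7.55-fold lower (6.40 to 8.98) without the cell richest in it.

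The 90 cells with *Lpl* were compared with the 481 that had none. Of 4196 genes compared, 53 were higher (1.26%) and 166 lower (3.96%). Of 14 compared lipid and cholesterol genes, 2 were higher (*Lpl*, which made the groups, and *Fabp4*) and 2 lower, among them *Fabp5*, with a median of -0.27. *Fabp4*, a fatty acid-binding protein gene, was 5.63-fold higher (3.97 to 8.05) and *Cd36* 4.15-fold (3.12 to 5.56). The cycling list summed to 338 against 193 CPM, with 2 of 4 compared genes higher (*Stmn1* and *Pclaf*), and *Mcm6*, a gene of DNA replication, was 3.36-fold higher (2.29 to 4.94). *Slc13a3* stood at 347 against 57.9 CPM (5.99-fold, 5.12 to 7.03) and *Clec12a* at 288 against 92.7 CPM (3.10-fold, 2.69 to 3.58). *H2-Aa* was 3.86-fold lower (3.60 to 4.14), *Ccl8* 4.64-fold (4.15 to 5.21) and *Plac8* 4.17-fold (3.50 to 5.00). These cells had a median of 14211 UMIs against 7677. Their dissociation and heat shock list summed to 6695 against 11517 CPM (5 of 14 compared genes lower), their neutrophil list to 2563 against 4471 and their fibroblast list to 253 against 464. The part of depth and of these lists was not tested.

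**Figure D4:**
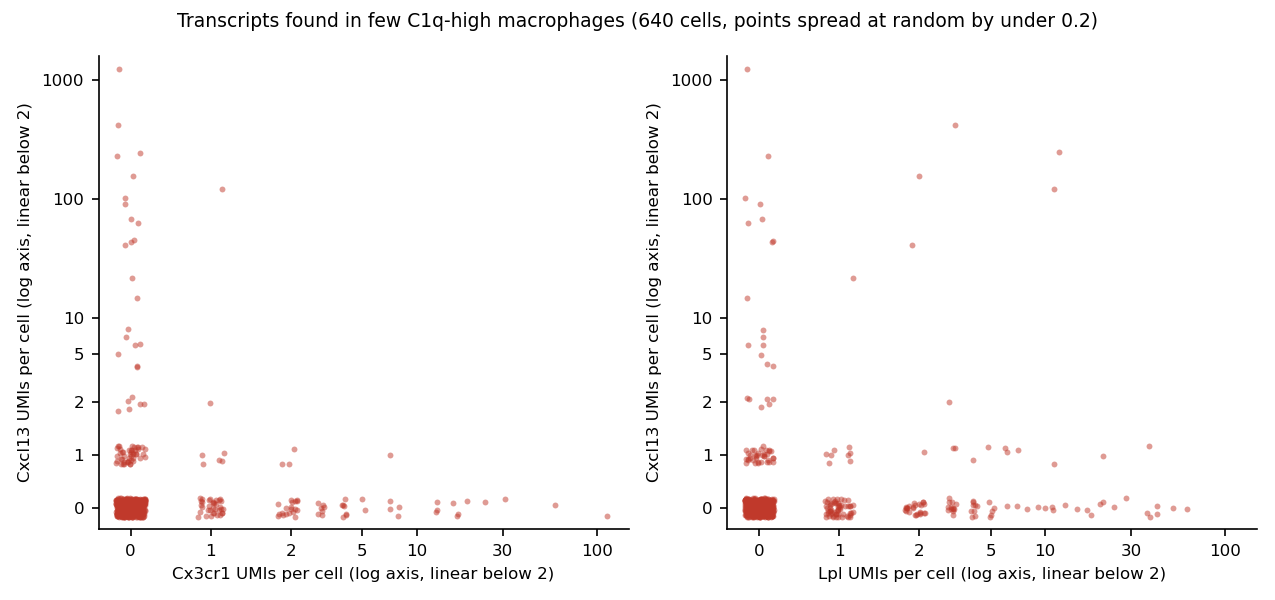
UMIs per cell of *Cxcl13* (y axes) against those of *Cx3cr1* (left) and of *Lpl* (right), on axes logarithmic above 2, in the 640 C1q-high macrophages, with points spread slightly to separate equal counts. On the left, no cell has both *Cxcl13* at 5 or more and *Cx3cr1* at 2 or more. On the right, 5 cells have both *Cxcl13* at 5 or more and *Lpl* at 2 or more. The groups are too small for anything to be read from these overlaps.

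Across the 640 cells, which share 1 library, free RNA and a C1q limit, rank correlations of per 10k levels are given as a description, with the value in 623 cells thinned to 1000 UMIs beside each. *H2-Aa* and *Cd74* had Spearman's rho of 0.83 (0.73 after thinning), and *C1qb* and *C1qc* 0.63 (0.30). *Ccl2* and *Ccl7* had 0.54 (0.36). *H2-Aa* and *Pf4* had -0.27 (-0.26).

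Transcripts of other cell types were also found. The fibroblast list, 8 genes with none at 0, summed to 453 CPM in C1q-high macrophages, 262 in resident-type macrophages, 443 in monocytes and 990 in T cells, and its most abundant gene *Dcn* had a UMI in 59.7% of C1q-high macrophages and 54.8% of T cells. The T-cell list summed to 35.5 CPM against 4738 in T cells. It holds *Cd3* genes, which the rule limits in C1q-high macrophages and which chose the T cells, so this gap is fixed in part. The keratinocyte list summed to 18.6 CPM, with *Krt1*, *Krt6a*, *Krt16*, *Dsp* and *Krt15* at 0 UMIs, which allows up to 0.477 CPM each.

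The same rule kept 39 of the 5258 epidermal cells (0.742%), with a median of 5215 UMIs. They had *C1qb* at 2882 CPM beside the dermal 3072, but it is a gene of the rule, so this nearness is fixed in part. *Ms4a7* stood at 876 CPM beside 635 in the dermal cells, and *Cxcl16* at 753. *Ccl8* and *Cxcl13* had no UMI in 39 cells, which allows up to 12.7 CPM. Their list of Langerhans cell markers summed to 2692 CPM against 49.5 in the dermal cells, with *Mfge8* the most abundant at 1740 CPM, and *Krt14*, a keratin gene of basal keratinocytes, had a UMI in all of them at 3424 CPM. The libraries differ in tissue, sort and depth, which cannot be told apart here.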

How the data were processed

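The authors counted reads with Cell Ranger (the matrix headers give 3.0.2) and deposited raw counts of UMIs per gene and cell for all barcodes called as cells, before their filters. The submitters' processing notes also name CASAVA and the build mm10. Of 31053 genes listed, 30934 were found in GENCODE M21 for positions. The mitochondrial limit of 10% replaced the study's 5%. Members and gene lists were chosen with earlier results of these data known. The named genes were those of 33 lists (441 genes found), the 10 largest and 10 smallest ratios of each comparison without the genes that define the populations, mitochondrial and ribosomal protein genes and receptor segments, and the most abundant genes. The T-cell reference and the splits by *Cx3cr1*, *Cxcl13* and *Lpl*, with the genes named for these splits, were chosen after values were seen.

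UMIs were summed over the cells of each population. Ratios of CPM carry exact conditional intervals, levels exact Poisson and shares exact Clopper-Pearson intervals (95%). A level of 0 allows 3 counts. Cells were thinned to 1000 UMIs without replacement, leaving out 17 shallower C1q-high macrophages. Doublets were not removed; Scrublet was an alternative. The other alternatives were limits on C1q, resident genes, mitochondria, depth, *Ptprc*, *Cd3*, cycling and fibroblast UMIs, minimums, pseudocounts, scaling, means over cells and leaving out the richest cell. The ratio was tried on simulated data, and the outcome is not reported here. Python 3.11.15, numpy 2.4.6, scipy 1.17.1, pandas 2.3.3, scanpy 1.11.5 and matplotlib 3.10.9 were used. Some genes that the naming rule picks are not reported here.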

Additional observations from a re-analysis of the deposited data

How the results depend on the processing

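No paired analysis was possible because there was a single library per tissue. Of 96 alternative values of the counts of cells and genes, 77 stayed within 1.5 times the main count and 19 moved. The 640 cells became 391 with C1q at 40 per 10k or more. Against resident-type macrophages, 187 higher and 151 lower genes became 74 and 95 with resident genes under 2 per 10k, and 302 were higher with a limit of 10. With a minimum of 20 UMIs, higher and lower genes numbered 528 and 543 against resident-type macrophages, 965 and 839 against monocytes and 1282 and 1168 against dendritic cells. With a minimum of 500 UMIs they numbered 51 and 42, 111 and 176, and 169 and 62. With a pseudocount of 5 UMIs, 111 were higher than in resident-type macrophages, and 217 were higher and 642 lower than in dendritic cells. A lower minimum adds thinly counted genes to the comparison.

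Of 1750 alternative values of 125 gene ratios, 1611 stayed the same, 138 moved and 1 reversed. A ratio stayed the same when it kept its direction and its side of 2-fold and lay within 1.5-fold of the main ratio. The reversed one was *Cx3cr1*, whose log2 ratio over resident-type macrophages was -1.45 by the mean over cells. Without mitochondrial and ribosomal protein genes, 450 genes were higher and 382 lower than in monocytes, 54.1% higher against 44.8%. Scrublet removed 27 of the 640 cells at a rate of 0.8% per 1000 cells, while its automatic threshold marked 0. The number of UMIs limits genes counted under 100 times. Leaving out the richest cell on each side of the splits among the 640 cells, chosen after seeing the data, turned the direction, among the genes named, of *Ccl8* in the *Cxcl13* split and of *P2ry12* (ratio 0.925) in the *Cx3cr1* split.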
